A study of Mus musculus with 6 samples.

Results

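Genes of endothelial sprouting and the endothelial matrix, Apln, Aplnr, Esm1, Mmrn2, Clec14a, Cd93, Egfl7, Robo4, Cd34 and Emcn, were followed in the ventricular part of mouse hearts at embryonic day 17.5. They are 10 of the 25006 genes counted, were taken by symbol, and all 10 were among the 14815 genes that passed the filter on low counts. The series set out to find molecular pathways under the influence of lymphatic vessels of the heart during its development. It compared 3 control libraries, with a genotype label of WT, with 3 libraries labelled null and VecadcreERT2; Prox1f/f, all on an NMRI background. Per the labels' protocols, Prox1 f/f females were bred to VecadCreERT2; Prox1f/f males, and the pregnant females were injected with tamoxifen (5 mg for each 40 g of weight) at E13.5 and again at E14.5. That breeding gives embryos with floxed Prox1 with or without Cre, so the WT label and the protocol do not say the same about the control alleles. Cre is driven by the VE-cadherin promoter, which is active in endothelial cells in general and not in lymphatic vessels alone, and the RNA came from whole ventricle. Cre is named for the null group only, so loss of Prox1 and the presence of Cre cannot be told apart.

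The genes were chosen by name and role with results of the same comparison in view: the fold changes of null against control were known, Egfl7 as lower and Mmrn2 as higher. Values of null against control are therefore a description of these genes. Each adjusted p in the text on the 10 genes shows where the gene stands in the fit over all 14815 genes and is no independent evidence.

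New blood vessels grow as sprouts, led by tip cells that migrate towards growth signals and followed by stalk cells that form the tube. Apelin, the peptide encoded by Apln, and Esm1 are made by tip cells, while the apelin receptor Aplnr is a G protein-coupled receptor of endothelial cells. Mmrn2 encodes multimerin 2, a glycoprotein that endothelial cells lay down around themselves and that the lectin-like membrane proteins Clec14a and Cd93 bind. Egfl7 is secreted by endothelial cells into the matrix, Robo4 is an endothelial roundabout receptor that steadies vessels, and Cd34 and Emcn are sialomucins of the endothelial surface. In the developing heart the coronary vessels grow through the ventricular wall at this stage.

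Libraries held 35195544 to 44330594 counts with 17751 to 17960 genes detected. A level of 3 counts, given for reference and not used as a filter, came to 0.0682 to 0.0849 CPM (counts relative to library size, scaled by the trimmed mean of M values, TMM). Prox1, the gene to be deleted, was called higher and not lower in null libraries, at 147 ± 3.15 CPM in controls and 164 ± 3.91 CPM in null libraries (log2 fold change 0.15 ± 0.03, adjusted p = 0.0331 in edgeR). Cardiomyocytes also express it. Esr1, part of which is fused to the inducible Cre, had 9 to 19 counts in controls and 244 to 298 in null libraries. Control 3 and null 2 were female by Y-linked counts and Xist. Null 1 and null 3 had Y-linked counts together with 1798 and 5738 Xist counts, where the male controls had 28 and 29, so they stand apart and may be mixed samples. Whether each library is a separate embryo is not stated in the labels, so p-values measure only the spread among these samples, which may be technical.

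The 10 genes went in opposite directions. Apln, Esm1 and Mmrn2 stood higher in every null library than in any control, and Aplnr, Clec14a, Egfl7, Cd34 and Emcn stood lower in every null library than in any control. Cd93 and Robo4 overlapped between the groups. In edgeR's quasi-likelihood test with Benjamini-Hochberg adjustment at 0.05, 2 of the 10 were called higher, Mmrn2 and Esm1, and 4 were called lower, Aplnr, Egfl7, Clec14a and Cd34. Over all genes 5.41% were called, 2.43% higher and 2.98% lower, and 26.6% did not overlap between groups; nothing is read from the share of the 10 genes, because they were chosen with this comparison known. The median log2 fold change of the 10 genes was −0.16, against −0.00396 over all genes tested. In RNA of whole ventricle, fewer endothelial cells and less RNA per cell cannot be told apart.

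**Figure D1:**
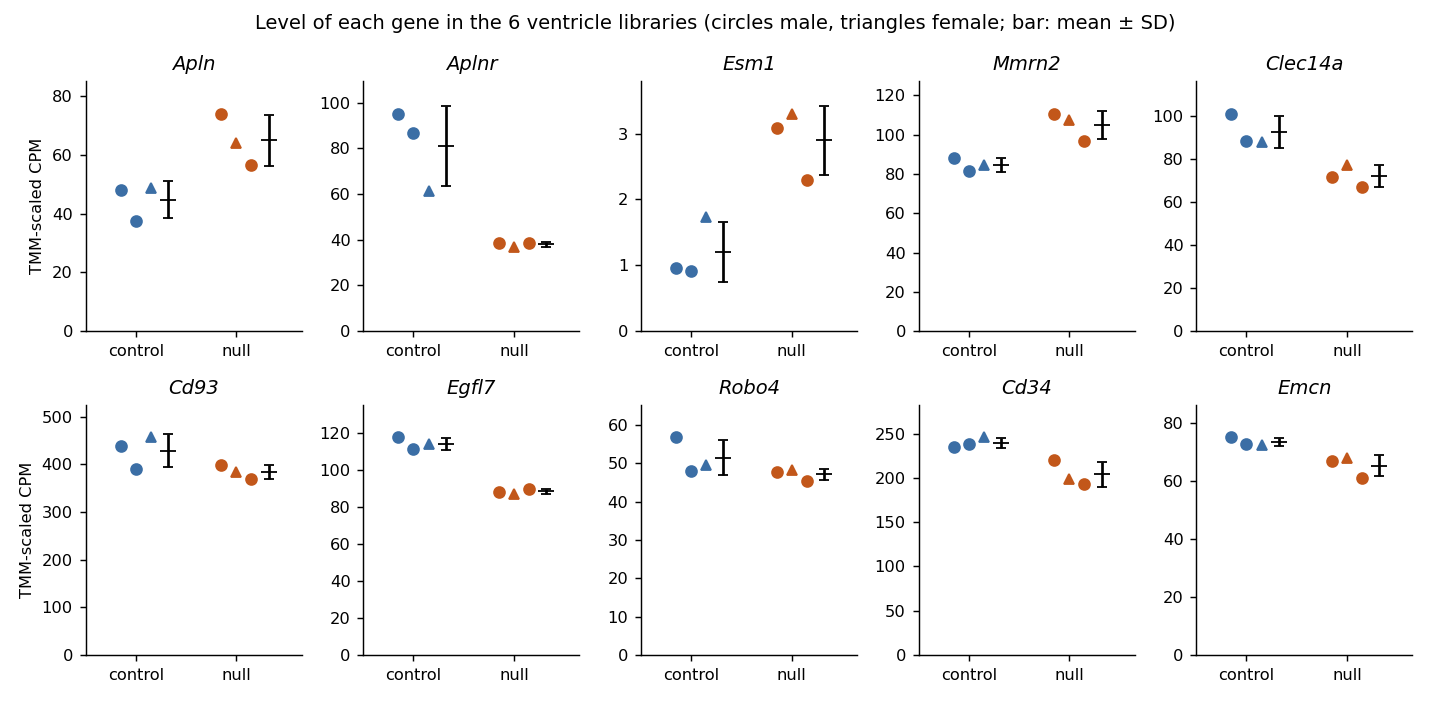
TMM-scaled CPM of the 10 genes on the y axis, from 0 and on a separate scale for each gene, in 3 control and 3 null libraries; circles are male and triangles female libraries, and the bar gives mean ± SD. Apln, Esm1 and Mmrn2 lie higher in all 3 null libraries, Cd93 and Robo4 overlap, and the other 5 lie lower; the lowest Aplnr control is control 3, a female library at 61.5 CPM.

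The sequence upstream of the start is shown for 5 genes with opposite differences, Apln and Esm1 on the higher side and Egfl7, Clec14a and Cd34 on the lower side. The sequences are the 250 bases before the annotated start, on the strand of the gene, from RefSeq on build GRCm38.p6, whose table held a window for 7 of the 10 genes. Egfl7 has 3 annotated windows, of which the 2 that hold the motif are shown. Starts in RefSeq can differ from the GENCODE gene bounds given below. The Egfl7 windows shown lie inside those bounds, and the windows of Clec14a and Cd34 overlap the edge of theirs. Capitals mark AGGAAG on either strand (CTTCCT as read here), a form of the core bound by ETS factors, a family of transcription factors that drive many endothelial genes.
Apln, chrX:48034854-48035103, minus strand: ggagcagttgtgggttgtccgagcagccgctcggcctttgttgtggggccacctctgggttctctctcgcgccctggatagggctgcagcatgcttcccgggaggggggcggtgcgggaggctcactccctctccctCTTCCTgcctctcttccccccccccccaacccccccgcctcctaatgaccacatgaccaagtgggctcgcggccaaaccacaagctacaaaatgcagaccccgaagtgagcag
Esm1, chr13:113209409-113209658, plus strand: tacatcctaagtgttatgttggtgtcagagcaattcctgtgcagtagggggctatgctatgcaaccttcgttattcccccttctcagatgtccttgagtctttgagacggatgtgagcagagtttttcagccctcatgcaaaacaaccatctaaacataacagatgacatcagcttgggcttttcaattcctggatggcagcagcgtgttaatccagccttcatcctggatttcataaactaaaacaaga
Egfl7, chr2:26580833-26581082, plus strand: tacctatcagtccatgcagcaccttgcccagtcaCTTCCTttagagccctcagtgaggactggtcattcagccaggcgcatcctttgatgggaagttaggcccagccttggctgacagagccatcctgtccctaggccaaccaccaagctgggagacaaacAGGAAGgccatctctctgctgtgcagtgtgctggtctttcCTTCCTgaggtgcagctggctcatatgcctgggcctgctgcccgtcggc
Egfl7, chr2:26583615-26583864, plus strand: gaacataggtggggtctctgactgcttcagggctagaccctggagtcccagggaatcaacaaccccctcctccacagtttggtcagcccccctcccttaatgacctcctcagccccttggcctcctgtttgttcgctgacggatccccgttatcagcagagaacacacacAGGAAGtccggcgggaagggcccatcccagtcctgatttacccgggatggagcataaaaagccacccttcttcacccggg
Clec14a, chr12:58269259-58269508, minus strand: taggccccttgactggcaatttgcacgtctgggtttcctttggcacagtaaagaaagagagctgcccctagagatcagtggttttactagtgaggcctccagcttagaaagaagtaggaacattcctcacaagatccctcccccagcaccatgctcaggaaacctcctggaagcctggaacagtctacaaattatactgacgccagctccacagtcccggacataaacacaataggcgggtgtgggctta
Cd34, chr1:194938571-194938820, plus strand: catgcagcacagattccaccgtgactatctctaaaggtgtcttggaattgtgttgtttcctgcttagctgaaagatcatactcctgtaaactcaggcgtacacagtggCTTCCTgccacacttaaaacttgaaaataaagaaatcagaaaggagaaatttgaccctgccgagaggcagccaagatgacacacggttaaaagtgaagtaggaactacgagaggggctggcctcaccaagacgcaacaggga

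Of the 7 genes with a window, 5 had AGGAAG in at least 1 of them (Apln, Cd34, Egfl7, Emcn and Robo4), and Esm1 and Clec14a had none. By window, 6 of 9 windows of these genes held it, and 29.5% of all 32851 windows of this length in the table. The match therefore occurred on both sides, in Apln (113 to 108 bases before the start) as in Cd34 (142 to 137), and its absence likewise in Esm1 and Clec14a. A match describes these letters only, and a window without it says nothing about the factors.

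Apelin and its receptor were opposed. Apln (X, 48025146 to 48034853) had 48.0, 37.5 and 48.6 CPM in controls 1 to 3 and 73.9, 64.1 and 56.5 CPM in null libraries 1 to 3. Every null value lay above every control value. Apln is X-linked; the libraries called female, 1 in each group, had 48.6 and 64.1 CPM, while null 1 and null 3, called male by Y-linked counts, also carry Xist counts. The means ± SD were 44.7 ± 6.25 and 64.8 ± 8.73 CPM (n = 3 per group). The log2 fold change was 0.54 ± 0.14 (SE), and Apln was not called in edgeR (adjusted p = 0.0871), nor with a sex term (adjusted p = 0.139). DESeq2 called it, with adjusted p = 5.27e-05 on a log2 fold change of 0.54.

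Aplnr (chromosome 2, 85136225 to 85139923) had 95.2, 86.8 and 61.5 CPM in controls and 38.7, 36.8 and 38.7 CPM in null libraries. The null libraries lay close together and the controls did not: the coefficient of variation was 21.6% in controls and 2.86% in null libraries, and control 3 was the low control. Aplnr was 2.14-fold lower in null libraries, a log2 fold change of −1.09 ± 0.17 (adjusted p = 0.0282 in edgeR), the largest fall among the 10 genes. The call was lost without control 2, null 1, null 2 or null 3 (adjusted p of 0.0867, 0.099, 0.115 and 0.0935 in edgeR). The log2 fold change was then between −1.11 and −1.05. Without control 1 it was −0.96 (adjusted p = 0.0395), and without control 3, the low control, −1.26 (adjusted p = 8.56e-06). Without null 1 and null 3 it was −1.14. With no filter on low counts the call was also lost (log2 fold change −1.10, adjusted p = 0.0602). Control 3, the low control for Aplnr, also had the highest summed erythroid markers, at 5074 CPM. Controls 1 and 2 had 1746 and 2892 CPM and null libraries 1207 to 1967 CPM, and near copies of haemoglobin genes make these sums uncertain. For the albumin gene Alb, control 3 had 322 counts, controls 1 and 2 had 3 and 12, and null libraries 1 to 3 had 57, 20 and 125. The part of the erythroid markers and of Alb in the result was not tested.

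Compared per exon length, in FPKM, the receptor stood above the ligand in each control and below it in each null library. The ratio of Apln to Aplnr was 0.593, 0.507 and 0.928 in controls and 2.25, 2.05 and 1.72 in null libraries, so that the mean ratio was 2.96-fold higher in null libraries. The second ligand of the receptor, Apela, was far lower than Apln in both groups, at 1.25 ± 0.142 FPKM in controls and 1.05 ± 0.142 in null libraries, against 14.2 ± 1.98 and 20.6 ± 2.77 FPKM for Apln. Apela was not called (log2 fold change −0.25 ± 0.21, adjusted p = 0.558 in edgeR). Gna13, which encodes a G protein subunit that the receptor can couple to, had a log2 fold change of −0.00027 ± 0.05 and was not called (adjusted p = 0.998 in edgeR).

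**Figure D2:**
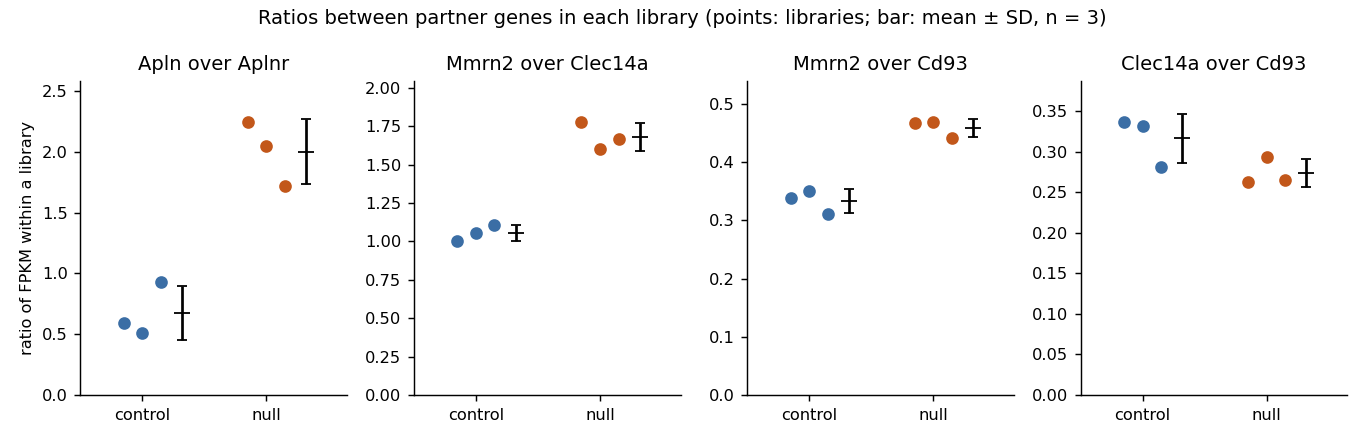
Ratio of FPKM between pairs of genes within each library on the y axis, with 1 point per library and the bar giving mean ± SD (n = 3). Apln over Aplnr, Mmrn2 over Clec14a and Mmrn2 over Cd93 lie higher in every null library, while Clec14a over Cd93 overlaps, at 0.281 to 0.337 in controls and 0.263 to 0.293 in null libraries.

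Esm1 (chromosome 13, 113209659 to 113218098) encodes endocan, a secreted proteoglycan used as a marker of tip cells. It was the lowest of the 10 genes, with 42, 33 and 61 counts in controls and 124, 120 and 95 counts in null libraries. In CPM these were 0.954, 0.917 and 1.73 against 3.08, 3.30 and 2.30, and every null library lay above every control. Esm1 was 2.42-fold higher in null libraries, a log2 fold change of 1.28 ± 0.26 (adjusted p = 0.0256 in edgeR), the largest rise among the 10 genes. Control 3 was the high control, and the spread in controls, with a coefficient of variation of 38.1%, was the widest of the 10 genes. The call was lost without control 1, control 2, null 1 or null 2 (adjusted p of 0.0659, 0.0859, 0.0873 and 0.0992 in edgeR), with log2 fold changes from 1.12 to 1.23. It was kept without control 3, the high control, at 1.62 (adjusted p = 0.00648), and without null 3 at 1.42 (adjusted p = 0.0496). Without null 1 and null 3 the log2 fold change was 1.47. Gzmk, annotated across the whole of Esm1 on the other strand, had at most 1 count in a library.

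Mmrn2 (chromosome 14, 34375465 to 34404287) had 88.4, 81.4 and 84.6 CPM in controls and 110.7, 107.5 and 97.0 CPM in null libraries. The lowest null library lay above the highest control. The means were 84.8 ± 3.50 and 105.1 ± 7.16 CPM, a 1.24-fold rise with a log2 fold change of 0.31 ± 0.05 (adjusted p = 0.0144 in edgeR). Without control 2 the adjusted p was 0.0534 and without null 2 it was 0.0639, on log2 fold changes of 0.28 and 0.29; without null 1 and null 3 it was 0.125 on 0.34. Mmrn2 is not overlapped by another annotated gene. The nearest tested coding genes, Sncg, Glud1, Bmpr1a and Ldb3, had log2 fold changes of −0.30, 0.00891, 0.05 and −0.03, and 0 of the 4 were called in edgeR (adjusted p from 0.593 to 0.915).

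The membrane partners of multimerin 2 did not rise with it. Clec14a (chromosome 12, 58264720 to 58269290) had 101.1, 88.5 and 87.9 CPM in controls and 71.6, 77.2 and 67.0 CPM in null libraries. It was 1.29-fold lower, a log2 fold change of −0.36 ± 0.07 (adjusted p = 0.0216 in edgeR). The call was lost without control 2, null 1 or null 3 (adjusted p of 0.0523, 0.0852 and 0.0702), and without null 1 and null 3 the log2 fold change was −0.26 (adjusted p = 0.398).

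Cd93 (chromosome 2, 148436640 to 148443563) had 438, 390 and 457 CPM in controls and 398, 385 and 370 CPM in null libraries. Control 2 lay within the null values, and Cd93 was not called (log2 fold change −0.16 ± 0.06, adjusted p = 0.169 in edgeR). Within a library the FPKM ratio of Mmrn2 to Clec14a was 1.01, 1.06 and 1.11 in controls and 1.78, 1.60 and 1.67 in null libraries. The ratio of Mmrn2 to Cd93 was 0.339, 0.350 and 0.311 in controls and 0.468, 0.469 and 0.441 in null libraries. Both ratios lay higher in every null library, by 1.59-fold and 1.38-fold in the mean.

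Relatives of these proteins outside the 10 genes differed among themselves. Clec14a and Cd93 belong to a family of C-type lectin domain proteins with thrombomodulin (Thbd), the endothelial anticoagulant receptor, and Cd248, a protein of fibroblasts and pericytes. Thbd had 47.1, 43.1 and 46.9 CPM in controls and 34.6, 29.2 and 32.9 CPM in null libraries, a log2 fold change of −0.50 ± 0.07 (adjusted p = 0.0047 in edgeR). Cd248 was not called (log2 fold change −0.09 ± 0.08, adjusted p = 0.588). Mmrn1, the multimerin of platelets and lymphatic endothelium, had 6.43, 9.86 and 13.8 CPM in controls and 2.56, 1.35 and 1.82 CPM in null libraries. Its log2 fold change was −2.38 ± 0.36 (adjusted p = 0.0211), opposite in sign to that of Mmrn2. The call was lost without control 2, null 2 or null 3 (adjusted p from 0.0623 to 0.0897). Mmrn1 is also in the lymphatic marker list. Controls 1 to 3 ranked alike for Mmrn1 and for summed erythroid markers (1746, 2892 and 5074 CPM). Null libraries 1 to 3, at 1967, 1818 and 1207 CPM, did not. The part of blood and lymphatic cells in the Mmrn1 difference was not tested. Thbd kept its call without any single library. Emilin1, Emilin2 and Emilin3, matrix proteins of the same family, had log2 fold changes of 0.06, 0.31 and 0.26 and were not called (adjusted p from 0.177 to 0.601).

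Egfl7 (chromosome 2, 26580014 to 26593120) gave the tightest difference. It had 117.9, 111.3 and 114.1 CPM in controls and 88.5, 87.4 and 90.0 CPM in null libraries, with coefficients of variation of 2.87% and 1.51%. The gap between the groups was wider than the range within either. Egfl7 was 1.29-fold lower, a log2 fold change of −0.37 ± 0.04 (adjusted p = 0.000964 in edgeR), and it kept its call without any single library. The call was lost without null 1 and null 3 together (log2 fold change −0.39, adjusted p = 0.084) and on scaling to endothelial genes (log2 fold change −0.15, adjusted p = 0.0606). Of the nearest tested coding genes, Notch1, Sec16a, Agpat2 and Fam69b had log2 fold changes of −0.13, 0.03, 0.05 and −0.19, and 0 of the 4 were called in edgeR (adjusted p from 0.102 to 0.779). Agpat2 shares 64 bases with the 3′ end of Egfl7 on the other strand, and the strand setting of the counting is not given in the sources used here. Gm20532, annotated on the same strand across 6482 bases of Egfl7, was not analysed here.

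An intron of Egfl7 carries the miR-126a hairpin (chr2:26591357-26591429), which in the basic GENCODE set overlaps 0 exons of its coding transcripts. miR-126 is the microRNA most often tied to endothelial cells and to vessel integrity, and its mature 3p strand, from RefSeq on GRCm38.p6, is shown because Egfl7 transcripts can be its source; capitals mark the seed, bases 2 to 8.
mmu-miR-126a-3p: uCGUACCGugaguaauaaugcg
Mir126a and Mir126b had 0 counts in all 6 libraries. Counts of long RNA do not measure mature miRNAs, so the lower Egfl7 count says nothing on the level of miR-126a.

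Egfl7 binds Notch receptors and can hold back their signalling in endothelial cells. Notch4, an endothelial Notch receptor, had 88.5, 77.0 and 76.4 CPM in controls and 63.0, 57.8 and 64.7 CPM in null libraries, a log2 fold change of −0.38 ± 0.07 (adjusted p = 0.0149 in edgeR), and its call was lost without null 2 (adjusted p = 0.0577). Notch1, the ligand gene Jag1 and the target gene Hey1 had log2 fold changes of −0.13, −0.40 and −0.48 and were not called (adjusted p of 0.102, 0.132 and 0.127). Each lay lower in every null library than in any control, where 26.6% of all genes did not overlap between groups.

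Robo4 (chromosome 9, 37401897 to 37415115) had 56.8, 48.1 and 49.7 CPM in controls and 47.7, 48.3 and 45.4 CPM in null libraries. Control 1 was high and the other libraries overlapped, and Robo4 was not called (log2 fold change −0.13 ± 0.06, adjusted p = 0.29 in edgeR). Its relatives Robo1 and Robo2 and the ligands Slit2 and Slit3 were not called either, with log2 fold changes of 0.17, 0.22, 0.08 and 0.41 (adjusted p from 0.332 to 0.738). For Unc5b, the receptor to which Robo4 binds, the log2 fold change was −0.18 and the adjusted p 0.253.

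Cd34 (chromosome 1, 194938819 to 194961279) had 234.8, 238.1 and 245.9 CPM in controls and 220.2, 199.2 and 193.5 CPM in null libraries, null 1 being the closest to the controls. It was 1.17-fold lower, a log2 fold change of −0.23 ± 0.05 (adjusted p = 0.0316 in edgeR). The call was lost without control 2, control 3, null 2 or null 3 (adjusted p of 0.0775, 0.0567, 0.129 and 0.114), and without null 1 and null 3 the log2 fold change was −0.27 (adjusted p = 0.174). Fibroblasts and blood progenitors also carry Cd34. Of 8 fibroblast markers, 3 were called higher (2.43% over all genes) and 5 were not called, with sums of 5728 to 6681 CPM in controls and 7033 to 7855 in null libraries, higher in every null library while Cd34 was lower. Of 6 tested blood progenitor markers 0 were called in edgeR (5.41% over all genes). An unadjusted p under 0.05 was reached by 2 of these markers, with no share over all genes given. Their sums overlapped, at 56.2 to 60.03 CPM in controls and 51.7 to 59.7 in null libraries. The part of these cells in the Cd34 counts was not tested. Gm16897, annotated on the other strand across 5521 bases of Cd34, had 48 to 98 counts. It was not called (log2 fold change −0.57 ± 0.18, adjusted p = 0.11 in edgeR), and its part in the Cd34 counts was not tested.

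Emcn (chromosome 3, 137341067 to 137432185) encodes endomucin, a mucin of capillary and venous endothelium. It had 75.2, 73.0 and 72.6 CPM in controls and 67.1, 68.0 and 61.2 CPM in null libraries. All null libraries lay below the controls, by a log2 fold change of −0.17 ± 0.05, and Emcn was not called (adjusted p = 0.0772 in edgeR). Podxl, podocalyxin, a sialomucin related to Cd34, was called lower (log2 fold change −0.19 ± 0.04, adjusted p = 0.0291), a call lost without control 1 or any null library (adjusted p from 0.0502 to 0.122). Cd164, a sialomucin of many cell types, was not called (log2 fold change 0.05, adjusted p = 0.627). The FPKM ratio of Cd34 to Emcn was 2.32, 2.42 and 2.51 in controls and 2.44, 2.17 and 2.34 in null libraries, which overlap.

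The level of the 10 genes per exon length ran over a wide range in controls. Cd93 was highest at 64.2 ± 5.14 FPKM, above 96.6% of tested genes, followed by Cd34 (32.9 ± 0.784) and Egfl7 (31.95 ± 0.917), whose ranges overlapped. Aplnr (21.9 ± 4.74) overlapped with Mmrn2 (21.3 ± 0.88), and Mmrn2 with Clec14a (20.2 ± 1.62), which lay apart from the next. Apln (14.2 ± 1.98) and Emcn (13.6 ± 0.26) overlapped as well, and Robo4 (9.72 ± 0.873) and Esm1 (0.572 ± 0.218) stood apart below them, Esm1 above only 16.4% of tested genes. In null libraries Mmrn2 (26.4 ± 1.80) ranked 3, with a range overlapping those of Cd34 and Egfl7 on either side, Apln (20.6 ± 2.77) ranked 5, and Aplnr (10.3 ± 0.294) ranked 8. The order depends on the length used: with the longest transcript in place of all exons, Cd34 came to 78.2 FPKM and Egfl7 to 61.4 FPKM in controls, so that Cd34 stood above Cd93.

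Beside the 4 of the 10 genes that were called lower, endothelial genes outside the list were lower too. Of 24 pan-endothelial genes outside the 10, 13 were called lower, 0 higher and 11 were not called, where 2.98% of all genes were called lower; the median log2 fold change was −0.27 and 23 of 24 lay below 0. Endothelial genes were already known to be lower in these libraries, so the count is not independent. By smallest p these were Sox18, Sox17 and Sox7, transcription factors of endothelial identity, with log2 fold changes of −0.50 ± 0.06, −1.01 ± 0.12 and −0.41 ± 0.06 (adjusted p of 0.0029, 0.00369 and 0.00732 in edgeR), and these 3 kept their calls without any single library. The summed level of the 24 genes was 2476 to 2692 CPM in controls and 2144 to 2333 CPM in null libraries. Leaving out control 1 gave 7 called lower, control 2 gave 8, null 2 gave 6 and null 3 gave 3, and leaving out both null 1 and null 3 gave 2. DESeq2 called 16 lower and 0 higher, where it called 552 lower and 536 higher among 14645 genes.

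Set against this pan-endothelial sum in each library, Apln, Esm1 and Mmrn2 moved further from 0, and the differences of Aplnr, Egfl7, Clec14a and Cd34 became smaller. Per 1000 pan-endothelial counts, Mmrn2 took 32.8, 32.9 and 33.0 counts in controls, a spread of 0.0684 (SD), and 47.5, 50.1 and 44.3 in null libraries. Apln took 15.1 to 18.9 in controls and 25.8 to 31.7 in null libraries, and Aplnr 23.96 to 35.3 and 16.6 to 17.7. Cd34 had 93.1 ± 5.07 in controls and 91.9 ± 3.11 in null libraries, Emcn 28.6 ± 0.807 and 29.5 ± 1.97, Cd93 166 ± 10.6 and 173 ± 5.76, Robo4 19.96 ± 0.982 and 21.2 ± 1.13, and Clec14a 35.9 ± 1.64 and 32.4 ± 3.10, all overlapping between groups. Egfl7 stayed below the controls in every null library, at 43.8 to 44.95 in controls and 37.9 to 41.1 in null libraries. In edgeR on this scale the log2 fold changes were 0.53 ± 0.07 for Mmrn2, 0.75 ± 0.08 for Apln, 1.49 ± 0.23 for Esm1 and −0.88 ± 0.16 for Aplnr, while Egfl7 (−0.15 ± 0.07), Clec14a (−0.15 ± 0.07) and Cd34 (−0.02 ± 0.07) lost their calls and Cd93, Robo4 and Emcn turned to 0.06, 0.09 and 0.05. This scaling moved the median of all genes to 0.21, so that 6463 genes were called higher and 174 lower, against 360 and 441 with TMM, and a value on it is a position relative to endothelial genes only.

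**Figure D3:**
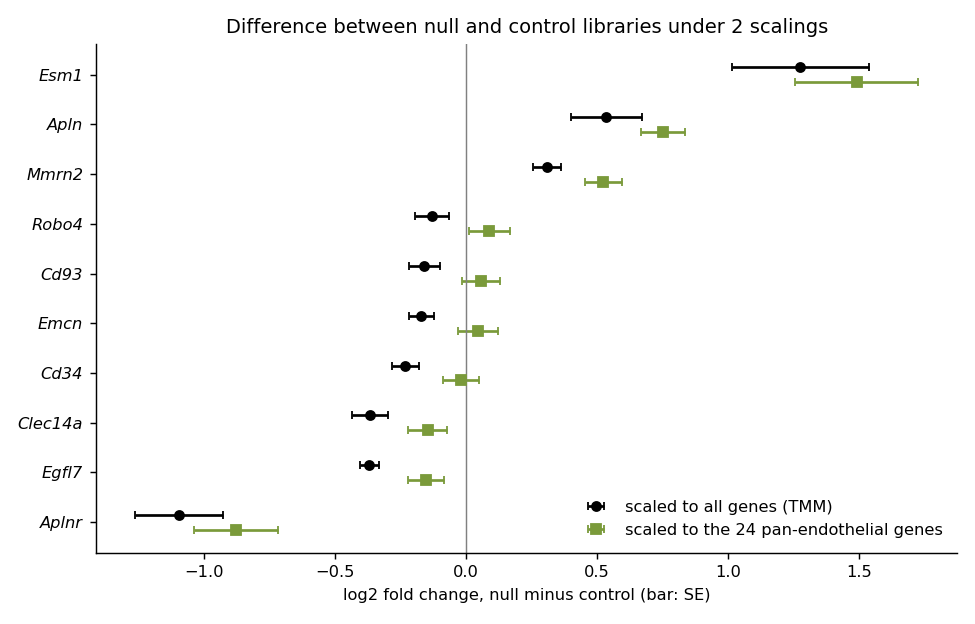
Log2 fold change, null minus control, on the x axis for each of the 10 genes, with SE as bars; circles are scaled to all genes by TMM and squares to the summed pan-endothelial genes. Under both scalings Esm1, Apln and Mmrn2 lie above 0 and Aplnr lies furthest below it, while Cd93, Robo4 and Emcn change sign.

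Other sprouting genes were called in both directions. Of 22 genes outside the 10, including VEGF receptors, tip cell genes and basement membrane components, 2 were called higher, 3 lower and 17 were not called, where 2.43% and 2.98% of all genes were called higher and lower; their log2 fold changes had a median of −0.14. The 2 higher ones were Ednrb, an endothelin receptor (38.2 ± 0.236 against 53.4 ± 0.922 CPM, log2 fold change 0.48 ± 0.04, adjusted p = 0.000441 in edgeR), and Plaur, the urokinase receptor (log2 fold change 0.45 ± 0.11, adjusted p = 0.0441). Pdgfb, with which tip cells recruit pericytes, the semaphorin receptor gene Plxnd1 and the cell cycle regulator gene Rgcc were the lower ones, with log2 fold changes of −0.33, −0.20 and −0.75 (adjusted p of 0.0165, 0.0229 and 0.0334). Ednrb kept its call without any single library. Pdgfb lost its call without null 2 or null 3 (adjusted p of 0.0546 to 0.0632), Plxnd1 without control 1 or any null library (0.0591 to 0.0964), and Rgcc and Plaur without each library but control 3 (0.0585 to 0.121 and 0.0817 to 0.146). Angpt2, another tip cell gene, was not called, at 7.68 ± 1.83 against 7.12 ± 2.45 CPM (log2 fold change −0.10 ± 0.29, adjusted p = 0.889), and Kdr, the main VEGF receptor, was not called either (log2 fold change −0.24, adjusted p = 0.0754). Dll4 was not called, and the basement membrane genes Col4a1, Col4a2, Lama4, Nid2 and Hspg2 had log2 fold changes from −0.04 to 0.01. Without null 2 or null 3 the number called lower was 0, without control 1 it was 1 and without control 2 it was 5. DESeq2 called 5 lower and 2 higher, where it called 552 lower and 536 higher among 14645 genes.

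Among 21 ligands, partners and relatives of the 10 genes, 4 were called lower (Thbd, Notch4, Mmrn1 and Podxl; 2.98% over all genes), 0 higher and 17 were not called, and the median log2 fold change was −0.00027. An unadjusted p under 0.05 was reached by 8 of the 21. No share of all genes at that level is given, so nothing is read from such counts in these lists. DESeq2 called 6 of the 21 lower and 1 higher, where it called 552 lower and 536 higher among 14645 genes. The number called lower in edgeR was 1 without null 2 and 2 without null 3. Macrophage markers stood higher in null libraries: of 8 genes 4 were called higher (2.43% over all genes) and 4 were not called, with sums of 70.5 to 81.7 CPM in controls and 90.8 to 113.1 in null libraries, and their part in the higher values of Apln, Esm1 and Mmrn2 was not tested. Of 8 endocardial markers, 1 of which (Plvap) is also in the pan-endothelial list, 0 were called in edgeR (5.41% over all genes). An unadjusted p under 0.05 was reached by 3 of them. Log2 fold changes ran from −0.48 to 0.22, with 5 above 0 and 3 below. The sums, which add markers of opposite direction, ran from 665 to 735.5 CPM in controls and 700.9 to 727.5 in null libraries. Of 8 cardiomyocyte markers 1 was called lower (Actc1, log2 fold change −0.18, adjusted p = 0.0401 in edgeR; 2.98% over all genes) and 7 were not called. An unadjusted p under 0.05 was reached by 3 of the 8. The 8 markers summed to 62080 to 67330 CPM in controls and 63790 to 65450 in null libraries.

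**Figure D4:**
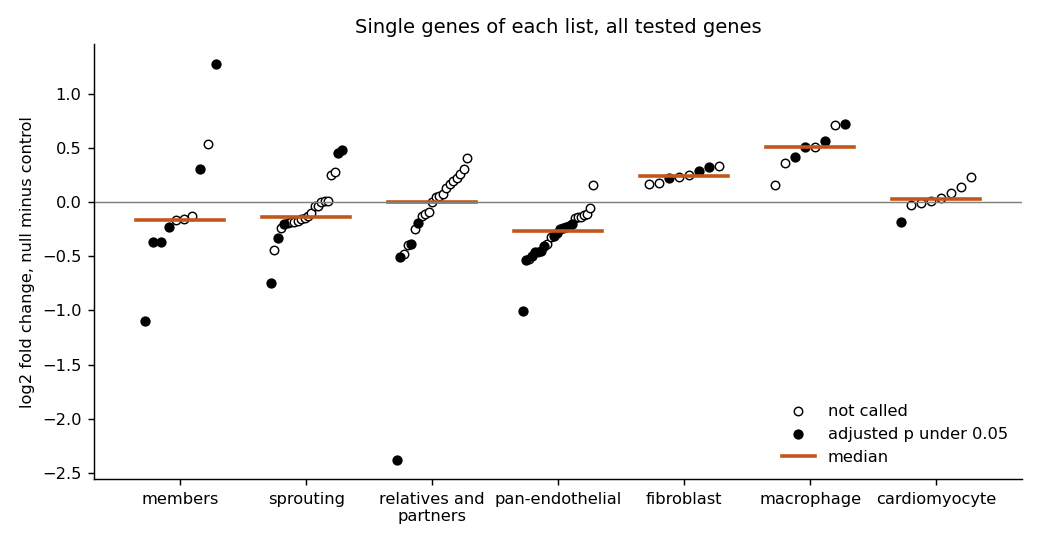
Log2 fold change, null minus control, on the y axis for each tested gene of 7 lists; filled points have an adjusted p under 0.05 in edgeR, open points do not, and the line is the median of the list. Medians lie at −0.16 for the 10 genes, −0.14 for sprouting genes, −0.27 for pan-endothelial genes and 0.51 for macrophage genes.

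The genes most like Apln, Mmrn2 and Egfl7 over the 6 libraries were named by the root mean square difference of centred log2 CPM among 10834 coding genes of at least 5 CPM. Nearest to Apln were Asb15, Igfbp3 and Uba7, at differences of 0.0787, 0.082 and 0.0844, where the profile of Apln itself had a size of 0.316. Nearest to Mmrn2 were Klf9, Selenop and Gpr155, at 0.0351, 0.0364 and 0.0381 against a size of 0.168. Nearest to Egfl7 were Tctex1d2, Arap3 and Klf2, at 0.031, 0.0322 and 0.0322 against a size of 0.186. With only 6 libraries in 2 groups these profiles mostly share the difference between groups.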

How the data were processed

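RNA of 6 ventricle libraries was measured by sequencing. The authors deposited raw counts per gene for each library. The submitters' processing notes name build mm10 and the tools STAR, HTSeq 0.6.1p1, cutadapt 1.13 and DESeq2; their order, the annotation release and the strandedness of counting were not given in the sources used here. Of 25006 identifiers, 24991 matched GENCODE M21 (GRCm38, the same build), used for symbols, coordinates and exon lengths, and 15 did not.

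From these counts, R 4.3.3 and edgeR 4.0.16 gave filterByExpr filtering, TMM scaling and the two-sided quasi-likelihood test (robust dispersion, group alone in the model) and Benjamini-Hochberg adjustment over 14815 genes; a gene was called at an adjusted p under 0.05. SE is the size of the log2 fold change divided by the square root of F. FPKM is TMM-scaled CPM per kilobase of all annotated exons. No 2 libraries of a group agreed within sampling noise (chi-square per degree of freedom 9.18 or more). On counts simulated for this comparison (14815 genes), 50 genes each were changed 1.2-fold, 1.5-fold, 2-fold and 3-fold. Of these, 10, 41, 47 and 50 (20%, 82%, 94% and 100%) were called. The 15 false calls beside them were a larger share of all calls than the threshold of 0.05 aims at. Changed genes had at least 1 CPM.

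The 10 genes and all lists were chosen with earlier results of these data known. Named genes are the 10, Prox1 and Esr1 as label checks, every called gene among the partners, up to 3 of smallest p per direction in the sprouting and pan-endothelial lists, the 2 nearest tested coding genes on each side of Mmrn2 and Egfl7, overlapping genes, and the 3 genes of nearest profile; other genes were named after their values were seen. Of the lymphatic, epicardial and mural marker lists (8, 7 and 9 tested genes), 2, 2 and 1 were called lower and 1, 0 and 0 higher. Of 6 erythroid genes 0 were called in edgeR (2 at an unadjusted p under 0.05). The share of all genes at an unadjusted p under 0.05 is not given, so nothing is read from such counts in any list. Over all genes 2.98% were called lower and 2.43% higher. Alternatives were DESeq2 1.42.0, other scalings, no filter, a threshold of 0.1, a replicate term, a sex term and left-out libraries. Intervals of counting error are not given, as reads are not independent molecules.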

Additional observations from a re-analysis of the deposited data

How the results depend on the processing

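All 10 genes kept their direction in the 14 alternatives other than scaling to endothelial genes. The threshold of 0.1 uses the main fit, so it could not change a direction. Fits with left-out libraries share the remaining libraries with the main fit, so they are no independent check of direction. On scaling to endothelial genes Cd93 (0.0587), Robo4 (0.0895) and Emcn (0.046) reversed. Of the called genes in the other lists Plxnd1 (0.0158), Podxl (0.0239) and Tek (0.0132) reversed there too. Replicate numbers did not pair libraries: correlations of same-numbered deviations were −0.064, −0.047 and −0.121. With no filter on low counts Aplnr lost its call. With a replicate block 1 of the 10 genes was called higher (Mmrn2) and 3 lower, as Esm1 and Cd34 lost their calls, and 1 partner and 1 sprouting gene were called higher. The sex term also left 1 sprouting gene higher. DESeq2 called 5 sprouting genes lower and 1 partner higher, and a threshold of 0.1 gave 5 sprouting genes lower. Without null 1 and null 3, 0 of the 10 genes were called in either direction, 0 sprouting genes lower and 1 higher, 1 partner lower and 2 pan-endothelial genes lower; the lone null library is then assumed to vary like the controls. With each library left out in turn, 1 to 4 of the 10 genes were called lower and 0 to 2 higher, sprouting genes 0 to 5 lower and 1 to 2 higher, partners 1 to 4 lower and 0 to 1 higher, and pan-endothelial genes 3 to 12 lower. Calls over all genes numbered 801, and 1088 in DESeq2 and 570 with the block. They numbered 574, 402 and 942 when control 1, control 2 and control 3 were left out. When null 1, null 2 and null 3 were left out, they numbered 385, 258 and 277. The cause of these differences was not tested. With the longest transcript as length, Emcn, Egfl7 and Cd34 came to 20.9, 61.4 and 78.2 FPKM in controls. Depth limits Esm1 most, at 33 to 124 counts.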
